A study of Mus musculus with 41 samples.

Results

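The metallothionein genes Mt1, Mt2 and Mt3 and their transcriptional regulator Mtf1 were followed in bulk RNA-seq of mouse brain in which the transcription factor gene Yy1 had been deleted from astrocytes. They were the entries of the deposited table whose gene symbol was one of these 4 names, 4 of 24946 genes kept, and all 4 passed the filter on low values in every comparison. All animals were C57BL/6J mice aged 12 weeks. Yy1-floxed mice carried Yy1 alleles that Cre recombinase can excise and served as controls (floxed). Conditional knockout mice (cKO) carried the floxed alleles together with GFAP-cre, a Cre recombinase driven by the promoter of the astrocyte filament gene Gfap, and the labels call the knockout astrocytic. No group carried GFAP-cre without floxed Yy1, so effects of Cre itself cannot be told apart from those of the deletion. Cortex was represented by 6 floxed and 5 cKO libraries, midbrain by 7 and 7, and cerebellum by 7 and 7, each library from the whole tissue of 1 animal. Libraries with the same title number and genotype were taken as regions of the same animal.

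Metallothioneins are small cysteine-rich proteins whose thiols bind zinc and copper and take up oxidants. Mt1 and Mt2 are expressed in many tissues, in brain chiefly by astrocytes, and are induced by metals, glucocorticoids and inflammatory cytokines, while Mt3 is the largely brain-restricted member, known as a growth inhibitory factor and as a zinc buffer of neurons and astrocytes. Mtf1 encodes a zinc finger protein that senses free zinc and binds metal response elements, short sequences in the promoters of Mt1, Mt2 and of the zinc exporter gene Slc30a1.

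The 3 metallothionein genes lie next to each other on the plus strand of chromosome 8 (GRCm38, GENCODE vM21), with Mt3 at chr8:94152607-94154146, Mt2 at chr8:94172664-94173568 and Mt1 at chr8:94179082-94180327. The gap is 18518 bases between Mt3 and Mt2 and 5514 bases between Mt2 and Mt1. Mtf1 lies on the plus strand of chromosome 4, at chr4:124802104-124849800. The metallothionein transcripts are short, with 549 bases for Mt1, 511 for Mt2 and 536 for Mt3 in 3 exons each, against 7554 bases in 12 exons for Mtf1. Their coding sequences (GENCODE vM21) are printed because the members are near copies whose reads could in principle be mixed, with the cysteine codons in capitals.
Mt1: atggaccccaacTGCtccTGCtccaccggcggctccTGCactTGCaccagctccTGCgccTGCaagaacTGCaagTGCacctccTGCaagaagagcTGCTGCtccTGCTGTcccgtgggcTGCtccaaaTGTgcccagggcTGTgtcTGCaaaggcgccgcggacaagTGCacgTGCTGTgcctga
Mt2: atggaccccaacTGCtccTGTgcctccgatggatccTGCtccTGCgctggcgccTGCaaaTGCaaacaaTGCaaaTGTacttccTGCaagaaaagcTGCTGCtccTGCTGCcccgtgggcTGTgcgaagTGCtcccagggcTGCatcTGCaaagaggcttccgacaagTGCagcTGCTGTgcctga
Mt3: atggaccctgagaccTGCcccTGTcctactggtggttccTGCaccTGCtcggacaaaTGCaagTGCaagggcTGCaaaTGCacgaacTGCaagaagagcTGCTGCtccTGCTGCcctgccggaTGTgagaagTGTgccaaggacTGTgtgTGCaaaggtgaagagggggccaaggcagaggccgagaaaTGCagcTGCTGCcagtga
Each holds 20 cysteine codons, among 61 codons in Mt1 and Mt2 and 68 in Mt3. Mt1 and Mt2 were identical at 79.6% of aligned coding bases, Mt1 and Mt3 at 66.2%, and Mt2 and Mt3 at 67.6%. The longest run shared between 2 of the transcripts was 27 bases (Mt1 and Mt3), shorter than the 50-base reads, and no 50-base window of Mt1 or Mt3 occurred in a transcript of another gene. Of the 50-base windows of Mt2, 45.5% lay in Gm45774, a gene on the opposite strand, and of those of Mtf1, 3.34% lay in 1110065P20Rik. The library kit does not mark strand, so Mt2 values may include reads of Gm45774, which is not analysed here.

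The 250 bases before the RefSeq start of the metallothionein genes (build GRCm38.p6) are shown because Mtf1 protein is known to act at the promoters of Mt1 and Mt2. Capitals mark the core of the metal response element, TGCACNC or TGCGCNC on either strand.
Mt1, chr8:94178839-94179088, plus strand: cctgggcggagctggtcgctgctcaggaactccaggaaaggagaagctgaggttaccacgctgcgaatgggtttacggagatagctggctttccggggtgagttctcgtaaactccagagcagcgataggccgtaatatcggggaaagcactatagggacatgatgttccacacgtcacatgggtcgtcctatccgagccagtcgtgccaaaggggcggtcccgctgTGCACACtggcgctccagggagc
Mt2, chr8:94172368-94172617, plus strand: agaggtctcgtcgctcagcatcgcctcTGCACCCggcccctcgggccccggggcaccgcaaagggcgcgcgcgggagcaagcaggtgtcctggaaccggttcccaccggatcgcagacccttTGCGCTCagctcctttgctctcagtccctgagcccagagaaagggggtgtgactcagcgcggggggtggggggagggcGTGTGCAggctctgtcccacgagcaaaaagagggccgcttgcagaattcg
Mt3, chr8:94152357-94152606, plus strand: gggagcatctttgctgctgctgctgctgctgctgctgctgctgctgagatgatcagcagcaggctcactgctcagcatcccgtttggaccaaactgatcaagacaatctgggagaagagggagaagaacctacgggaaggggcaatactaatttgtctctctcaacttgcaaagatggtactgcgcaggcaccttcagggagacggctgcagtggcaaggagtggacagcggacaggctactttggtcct
Among the 32851 mouse promoters in the RefSeq table, 21.4% held at least 1 core in these 250 bases. The Mt2 window held 3 cores, a number that 1.26% of promoters reached, the Mt1 window 1, and the windows of Mt3 and Mtf1 held none. Annotated starts vary at these genes: over 300 bases, which add the first 50 after the start, the counts were 4 for Mt2, 3 for Mt1, 1 for Mt3 and 0 for Mtf1. Of all promoters, 0.517% reached the count of Mt2, 1.97% that of Mt1 and 25.7% that of Mt3 over 300 bases. These matches describe the letters of the windows and do not show sites of binding. The core of a YY1 site (CCATNTT, either strand, in 12.4% of promoters) matched the Mt3 window and none of the windows of Mt1, Mt2 and Mtf1. All 4 members matched an entry of the promoter table.

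Values are the authors' normalised reads, and depth estimated from the spacing of low values ranged from 6.83 M to 69.7 M reads per library. Behind single values stood 3630 to 30183 estimated reads for Mt1, 1484 to 18215 for Mt2, 3467 to 21145 for Mt3 and 315 to 2928 for Mtf1, which was counted least precisely. Yy1 was lower in cKO in each region, by 0.26 in cortex (limma, SE 0.07, adjusted p = 0.0166), by 0.24 in midbrain (SE 0.06, adjusted p = 0.018) and by 0.86 in cerebellum (SE 0.15, adjusted p = 0.00114) on the log2(value + 1) scale. Gfap was higher, with log2 folds of 2.30 (SE 0.40, adjusted p = 0.00519), 1.25 (SE 0.16, adjusted p = 0.000356) and 2.55 (SE 0.42, adjusted p = 0.000884). The cerebellum library labelled floxed 6 went against its label, with Yy1 at 585.4 (cKO 498.8 to 682.6) and Gfap at 25729.2 (cKO 15071.3 to 63053.0, other floxed libraries 4240.5 to 4785.6). In the same library the summed microglia markers reached 14571.0, against 3446.7 to 4337.2 in the other floxed cerebella. The midbrain partner of this library had Gfap at 10368.3 (floxed 9067.6 to 11059.5, cKO 11964.6 to 37119.6). Its Yy1 was 983.2, the lowest floxed value (cKO 891.9 to 1068.8). The cortex partner had Gfap at 6347.8, the highest floxed value (cKO 6214.9 to 40759.6). Its Yy1 was 1157.0 (floxed 1134.5 to 1428.2, cKO 953.6 to 1188.8). The libraries labelled floxed 6 stayed in the floxed groups, and the tests of genotype, of differences between regions and of ratios, and the list counts, were also run without them. Leaving them out also removed the highest floxed Mt1 and Mt2 value of each region. Without them Yy1 had log2 folds of -0.27, -0.27 and -1.0 (adjusted p = 0.0222, 0.00847 and 1.28e-05) and Gfap of 2.65, 1.31 and 2.95 (adjusted p = 0.00016, 0.000117 and 2.26e-06). The animals labelled floxed 5, floxed 6 and cKO 7 carry a female label and Y-linked transcripts, and 2 libraries were put in no group because their titles and tissue labels disagree on the region. In bulk tissue a change in the number of cells of a type and a change in RNA per cell cannot be told apart.

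Mt1 and Mt2 were both higher in cKO than in floxed tissue in cortex, midbrain and cerebellum, whereas Mt3 and Mtf1 passed the test in no region. Mt2 had the largest estimates, 2.60-fold in cortex, 1.96-fold in midbrain and 2.13-fold in cerebellum. The corresponding folds of Mt1 were 1.89, 1.61 and 1.87. In cerebellum a direct test of the ratio of Mt1 to Mt2 did not pass (exact permutation p = 0.0775). As background, 10.5% of tested genes were called higher in cortex, 8.48% in midbrain and 19.4% in cerebellum (lower: 12.9%, 7.61% and 19.6%; limma, adjusted p under 0.05).

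**Figure D1:**
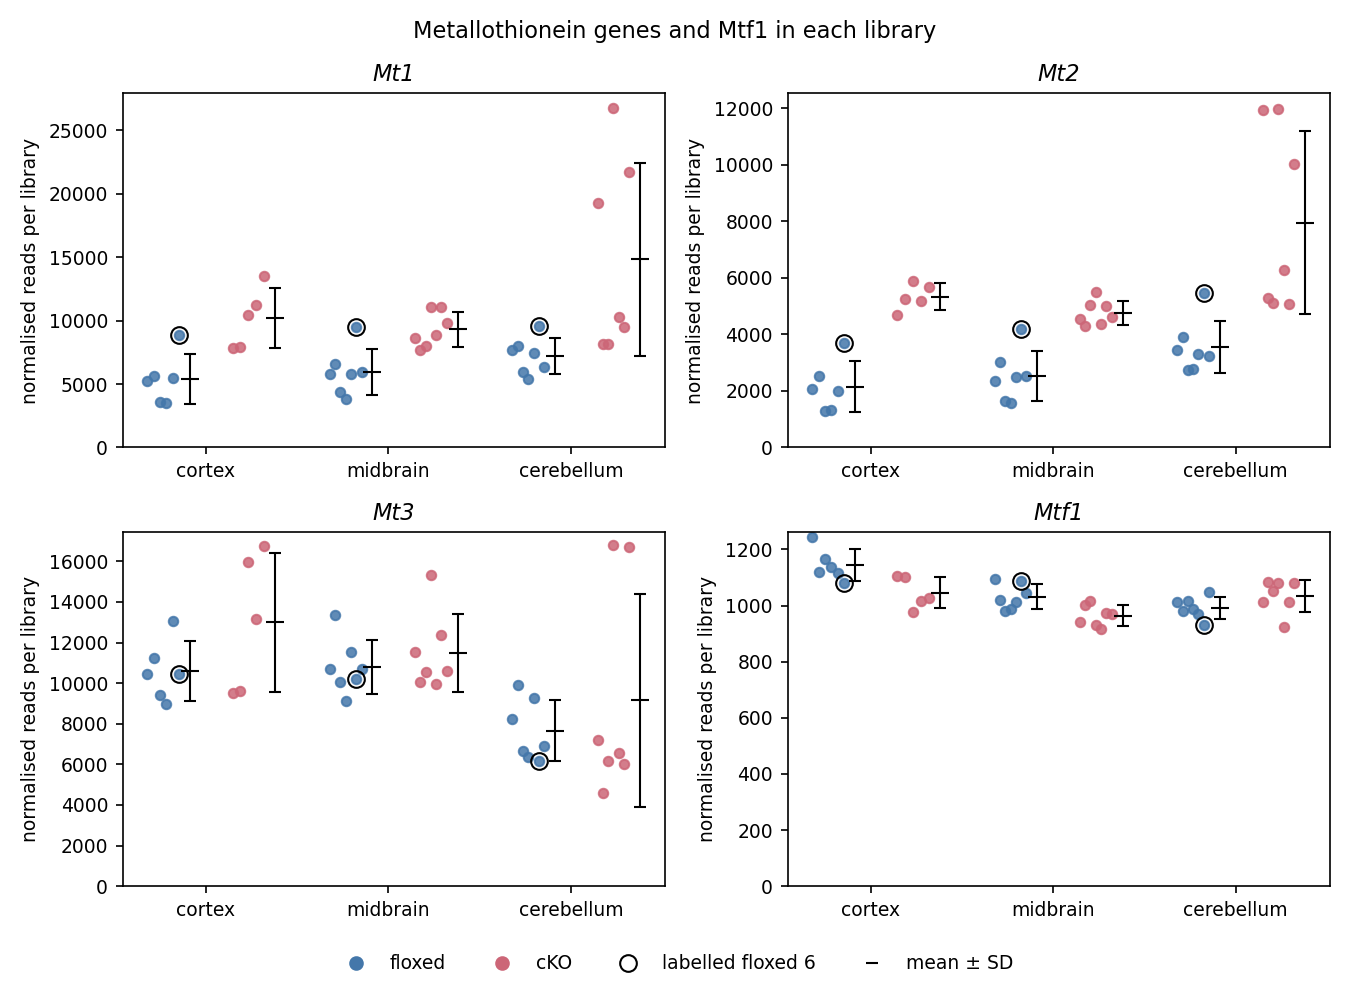
Normalised reads of each member in each library by region, floxed in blue and cKO in red, with mean ± SD beside each group and the libraries labelled floxed 6 ringed. In each region all cKO values of Mt1 and Mt2 lie above the unringed floxed values, while the groups overlap for Mt3. The ringed values lie within the cKO range for Mt1 in each region and for Mt2 in cerebellum. The share of all genes that separate in this way was not computed.

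Mt1, a ubiquitous isoform, ranged in floxed cortex from 3530.9 over a median of 5354 to 8884.8 normalised reads, and the cKO cortex libraries 2, 3, 4, 5 and 6 read 7858.1, 7948.8, 10404.9, 11242.3 and 13535.3. The highest floxed value was that of the library labelled floxed 6, and the next was 5594.8, below all 5 cKO libraries. Group means were 5389 ± 1944 (SD, n = 6) and 10198 ± 2388 (SD, n = 5). The log2 fold was 0.92 (limma, SE 0.16, 95% interval 0.58 to 1.26, adjusted p = 0.00258), and 1.03 without the library labelled floxed 6 (SE 0.14, adjusted p = 0.000657). With Xist level in place of labelled sex as the covariate the fold was 0.76 and the call was lost (adjusted p = 0.0699). Floxed cortex libraries 5 and 6, labelled female, had Xist at 18.7 and 16.4, so no floxed cortex library was Xist-high. In cKO cortex, libraries 5 and 6 had Xist at 10914 and 9515, so sex by Xist and genotype cannot be fully told apart in cortex.

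In midbrain, Mt1 ran from 3784.3 over a median of 5810.0 to 9502.9 in floxed libraries and from 7689.3 over 8843.1 to 11068.0 in cKO libraries. The floxed maximum was again the library labelled floxed 6, and all 7 cKO libraries exceeded the next floxed value of 6582.5. Means were 5962 ± 1839 and 9308 ± 1373 (SD, n = 7 each). This gave a log2 fold of 0.68 (limma, SE 0.14, adjusted p = 0.00601), or 0.79 without the library labelled floxed 6 (SE 0.12, adjusted p = 0.000433). The call was lost when estimated depth was a covariate (0.58, adjusted p = 0.0792) or when all 6 groups shared 1 fit (0.68, adjusted p = 0.0526).

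In cerebellum, floxed values of Mt1 went from 5428.2 over 7479.5 to 9579.7 and cKO values from 8127.0 over 10270.5 to 26744.9. The cKO libraries fell into a lower set of 4 between 8127.0 and 10270.5 and the higher libraries 1 (19236.2), 7 (21718.1) and 4 (26744.9). All 7 exceeded the floxed values other than that of the library labelled floxed 6, of which the highest was 8008.2. Means were 7211 ± 1423 and 14821 ± 7611 (SD, n = 7 each). The limma estimate on the log2 scale was 0.90 (SE 0.27, adjusted p = 0.0188), or 0.98 without the library labelled floxed 6 (adjusted p = 0.0154). Leaving out cKO libraries 4 and 7, added after the data were seen, lowered it by more than 1.5 times to 0.56 and ended the call (adjusted p = 0.0537), as did depth as a covariate (0.81, adjusted p = 0.0736).

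Mt2, the isoform usually induced together with Mt1, read 2049.2, 2523.6, 1305.2, 1326.0, 1983.8 and 3702.9 in floxed cortex libraries 1 to 6. In cKO cortex libraries 2 to 6 it read 4665.5, 5252.5, 5891.7, 5172.7 and 5680.5. The groups did not overlap, and means were 2148 ± 892 (SD, n = 6) and 5333 ± 477 (SD, n = 5). The log2 fold was 1.38 (limma, SE 0.22, 95% interval 0.90 to 1.86, adjusted p = 0.00244), or 1.56 without the library labelled floxed 6 (SE 0.17, adjusted p = 0.000156).

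Midbrain values of Mt2 also did not overlap, with 1570.8 to 4174.8 and a median of 2473.5 in floxed libraries against 4282.8 to 5496.1 and a median of 4602.8 in cKO libraries. The share of all genes whose groups do not overlap was not computed in any region, with or without the libraries labelled floxed 6. Means were 2540 ± 885 and 4761 ± 433 (SD, n = 7 each), for a log2 fold of 0.97 (limma, SE 0.17, 95% interval 0.61 to 1.34, adjusted p = 0.00198). Without the library labelled floxed 6 it was 1.10 (SE 0.13, adjusted p = 7.9e-05). In cerebellum 4 of 7 cKO libraries exceeded every floxed library, and all 7 exceeded the floxed libraries other than the one labelled floxed 6. Floxed values ran from 2737.1 over 3314.6 to 5461.3, and cKO values from 5060.9 over 6265.2 to 11979.8. The log2 fold was 1.09 (limma, SE 0.24, adjusted p = 0.00322), from means of 3558 ± 930 and 7948 ± 3237 (SD, n = 7 each), or 1.21 without the library labelled floxed 6 (SE 0.23, adjusted p = 0.0011). Mt2 kept its call in all 3 regions under every setting tried.

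Two-sided exact permutation tests of single members gave p = 0.00433 for Mt2 in cortex, 0.000583 in midbrain (the smallest that 7 against 7 libraries can give) and 0.00233 in cerebellum. For Mt1 they gave exact p = 0.00866, 0.0035 and 0.00408.

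Mt3, the brain-enriched isoform, was not called in any region. In cortex the floxed range was 8960.8 to 13067.8, and cKO libraries 2 to 6 read 9493.5, 9614.0, 15964.7, 13177.0 and 16751.6. The groups overlapped, with 2 cKO libraries at the low end of the floxed range and 3 above it. Means were 10595 ± 1459 (SD, n = 6) and 13000 ± 3415 (SD, n = 5), with a log2 fold of 0.24 (limma, SE 0.13, 95% interval -0.05 to 0.54, adjusted p = 0.198).

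In midbrain, Mt3 was between 9106.1 and 13335.4 in floxed and between 9946.5 and 15338.7 in cKO libraries. The log2 fold was 0.08 (limma, SE 0.10, 95% interval -0.12 to 0.29, adjusted p = 0.591). In cerebellum the floxed range was 6150.7 to 9934.8 with a median of 6898.3. Of the cKO libraries, 5 lay between 4578.7 and 7178.3 and libraries 4 and 7 reached 16790.8 and 16690.2. The log2 fold was 0.10 (limma, SE 0.28, 95% interval -0.49 to 0.70, adjusted p = 0.786), and it turned negative without cKO library 4 (-0.09), without cKO library 7 (-0.09) or without both (-0.32, adjusted p = 0.0949). Without the libraries labelled floxed 6, Mt3 was likewise not called, with log2 folds of 0.18, 0.07 and 0.04 (adjusted p = 0.361, 0.654 and 0.919).

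The cKO libraries with Mt3 above the floxed range of their region were those in which short transcripts read high. The level of short transcripts was taken as the median log2 deviation from the regional mean of 827 genes whose transcripts are at most 700 bases long. It was 0.25 in cKO cerebellum library 4 and 0.33 in cKO cerebellum library 7, against -0.13 to 0.01 in the other 12 cerebellum libraries. In cKO cortex it was 0.19, 0.09 and 0.17 in libraries 4, 5 and 6 and -0.07 in libraries 2 and 3. The cKO midbrain library with the highest Mt3, library 4, stood at 0.16, and the highest floxed cortex library, library 5, at 0.11. cKO cerebellum libraries 4 and 7 were also shallow, at 13.8 M and 6.83 M estimated reads. With this level as a covariate, added after the data were seen, Mt3 had log2 folds of -0.07 in cortex (SE 0.09, adjusted p = 0.684), -0.08 in midbrain (SE 0.05, adjusted p = 0.375) and -0.36 in cerebellum (SE 0.10, adjusted p = 0.0108), the last called lower. The same covariate left Mt2 called at 1.44, 0.84 and 0.82 (adjusted p = 0.0261, 0.0161 and 0.00738) and Mt1 at 0.90, 0.54 and 0.51 (adjusted p = 0.0386, 0.0378 and 0.0337). The part of library preparation in these levels was not tested.

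**Figure D2:**
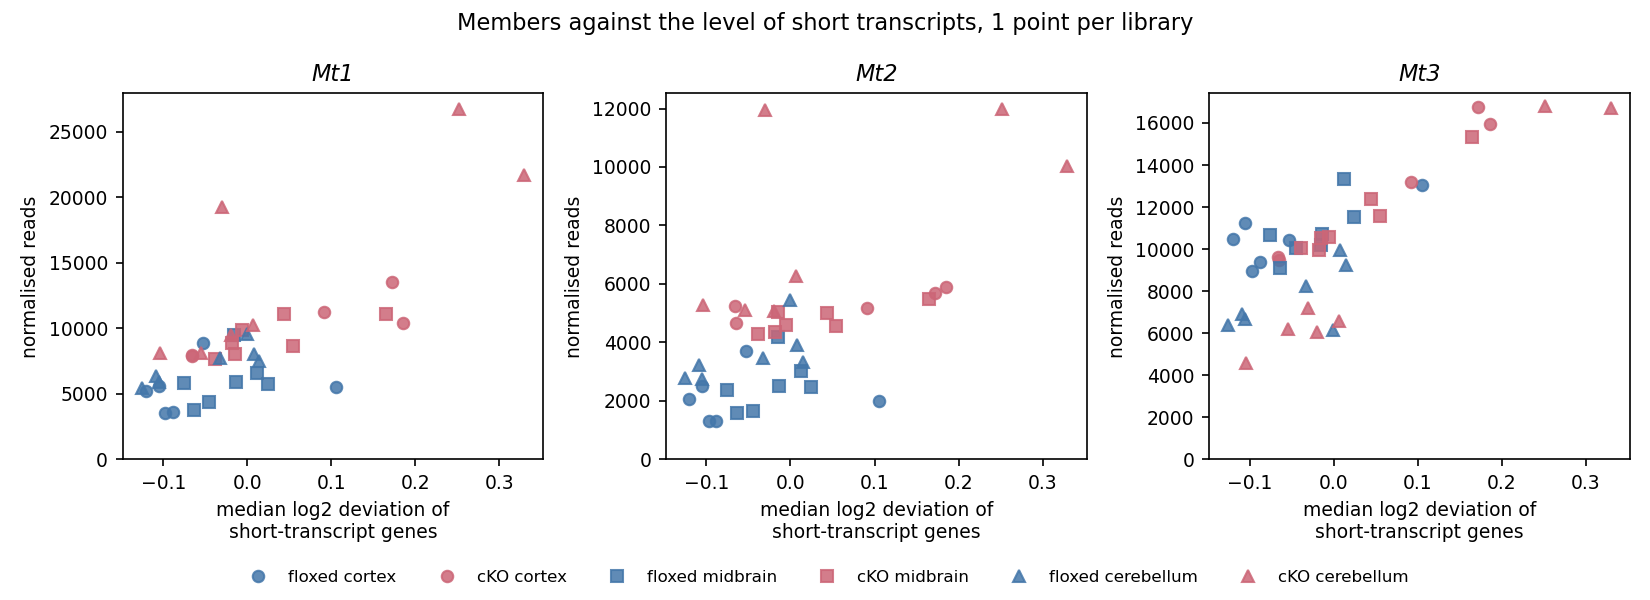
Normalised reads of Mt1, Mt2 and Mt3 against the median log2 deviation of short-transcript genes, 1 point per library, with colour for genotype and symbol for region. The highest Mt3 values, from 15338.7 to 16790.8, lie at levels of 0.16 to 0.33, whereas cKO points of Mt2 lie above most floxed points over the whole horizontal range.

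Mtf1, the zinc-sensing regulator, was the steadiest of the members, with coefficients of variation between 3.80% and 5.56% in the 6 groups. Floxed and cKO means were 1145 ± 56.4 (SD, n = 6) and 1046 ± 56.1 (SD, n = 5) in cortex, 1032 ± 45.3 and 964 ± 36.6 in midbrain and 992 ± 38.6 and 1035 ± 57.6 in cerebellum (SD, n = 7 each). The log2 folds were -0.13 (limma, SE 0.06, adjusted p = 0.12), -0.10 (SE 0.04, adjusted p = 0.14) and 0.06 (SE 0.06, adjusted p = 0.43). Below the lowest floxed value lay 3 of 5 cKO cortex and 5 of 7 cKO midbrain libraries. Exact permutation tests of the single gene, not adjusted over genes, gave p = 0.0195 in cortex, 0.0105 in midbrain and 0.139 in cerebellum. Without the libraries labelled floxed 6, the limma folds were -0.13, -0.09 and 0.05 and again not called (adjusted p = 0.126, 0.203 and 0.552). Mtf1 shares 3.34% of its windows with 1110065P20Rik on the opposite strand, whose medians were 1188.1 in floxed and 1731.5 in cKO cortex. Mt4, the metallothionein gene of stratified squamous epithelia, read at most 1.4 in any assigned library.

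**Figure D3:**
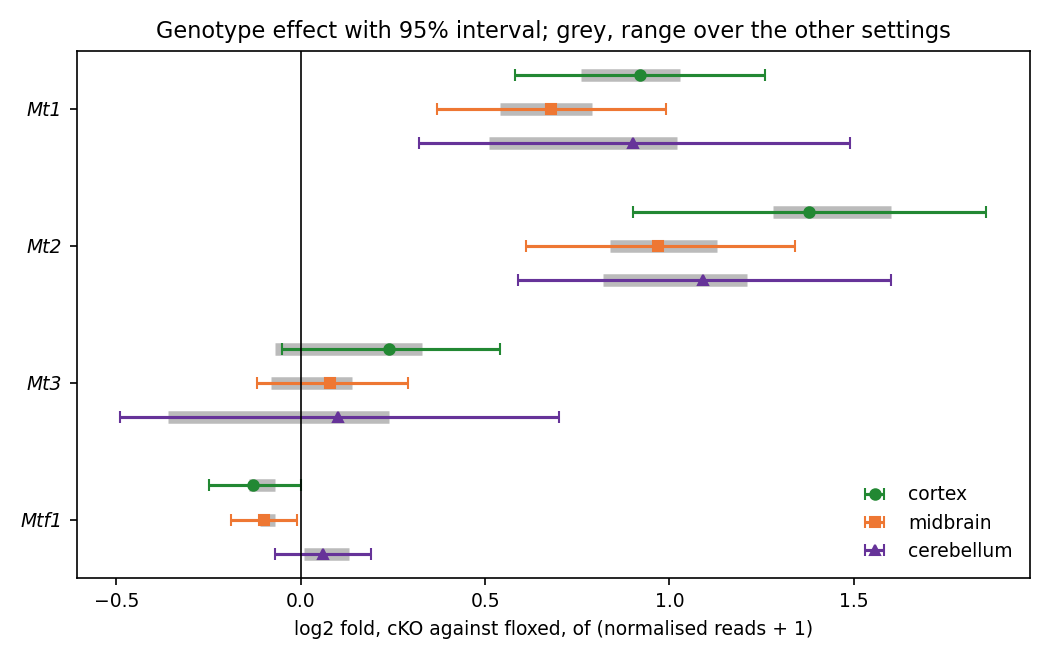
Log2 fold of cKO against floxed for each member and region, with 95% intervals from limma. Grey bars span the values under the other settings: those of Mt1 and Mt2 stay above 0, and those of Mt3 cross 0 in each region.

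Whether the genotype effect differed between regions was tested directly. No difference was called for Mt1, Mt2 or Mt3. For Mt2, the effect in midbrain minus that in cortex was -0.42 (limma, SE 0.32, adjusted p = 0.998), and in cerebellum minus cortex -0.30 (SE 0.32, adjusted p = 0.592), so intervals reached from -1.07 to 0.23 and from -0.94 to 0.35. Without the animal labelled floxed 6 these were -0.47 (adjusted p = 0.998) and -0.37 (adjusted p = 0.401), and no difference of Mt1, Mt2 or Mt3 was called. Mtf1 had a difference of 0.19 between cerebellum and cortex (SE 0.07, adjusted p = 0.0487). It passed in 8 of 24 other settings. Of the settings that leave out 1 animal, it lost the call in 11 of 14, with the highest adjusted p of 0.14 without animal cKO 4 (0.15). Without the animal labelled floxed 6 it was 0.19 (adjusted p = 0.0493). Between cerebellum and midbrain the difference of Mtf1 was 0.16 (SE 0.06, adjusted p = 0.058), and with the animal as a replicate block it was called (0.16, adjusted p = 0.0379). Genes called in either direction made up 0.006% of those tested for midbrain against cortex, 14.5% for cerebellum against cortex and 22.4% for cerebellum against midbrain. These 3 differences share groups with each other.

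Because Mt1 and Mt2 share much of their regulation, their ratio within each library was compared, which does not depend on scaling. The ratio of Mt1 to Mt2 reads was lower in cKO than in floxed tissue in cortex and midbrain, so Mt2 values rose more than Mt1 values. Mt2 values may include reads of Gm45774 on the opposite strand, whose part in the ratio was not tested. In floxed cortex libraries 1 to 6 the ratio was 2.55, 2.22, 2.77, 2.66, 2.77 and 2.40, and in cKO libraries 2 to 6 it was 1.68, 1.51, 1.77, 2.17 and 2.38. All but 1 of the cKO values lay below the floxed range. Geometric means fell from 2.55 to 1.88 (exact permutation p = 0.00649, adjusted over 6 ratio tests 0.00974). In midbrain they were 2.38 and 1.94, with 6 of 7 cKO libraries below the floxed range (exact p = 0.00117, adjusted 0.00524). Without the libraries labelled floxed 6 the log2 differences were -0.46 in cortex (adjusted exact p = 0.0208) and -0.30 in midbrain (adjusted exact p = 0.00699). In cerebellum they were 2.05 and 1.79, which did not pass the test (exact p = 0.0775). There the ratio passed without the library labelled floxed 6 (exact p = 0.0443), without cKO library 4 (adjusted exact p = 0.0245) or without cKO library 7 (adjusted exact p = 0.0326).

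The ratio of Mt1 to Mt3 was higher in cKO in each region. Its geometric mean went from 0.49 to 0.79 in cortex (exact permutation p = 0.0173, adjusted 0.0208), from 0.54 to 0.81 in midbrain (exact p = 0.00466, adjusted 0.00932) and from 0.94 to 1.64 in cerebellum (exact p = 0.00175, adjusted 0.00524). The libraries labelled floxed 6 had ratios of 0.85, 0.93 and 1.56, each the highest floxed value of its region. Without them all cKO libraries exceeded all floxed ones in each region (exact p = 0.00794, 0.000583 and 0.000583, adjusted 0.00952, 0.0035 and 0.0035). In 5 of 7 cKO cerebellum libraries the ratio was above every floxed value, including 1.59 in library 4, where both genes were high.

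**Figure D4:**
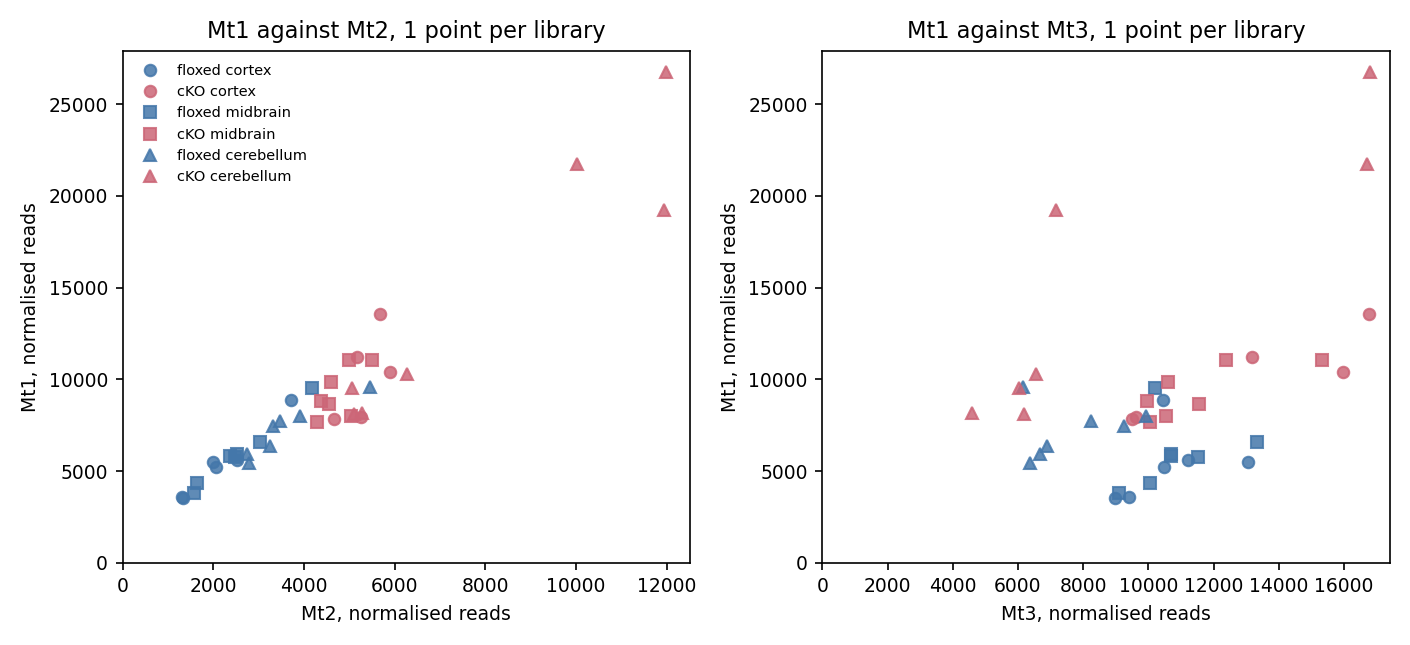
Normalised reads of Mt1 against those of Mt2 and of Mt3, 1 point per library, with colour for genotype and symbol for region. Mt1 rises with Mt2 from 1305.2 to 11979.8 reads of Mt2, with lower ratios of Mt1 to Mt2 in most cKO points of cortex and midbrain. At similar Mt3 most cKO points lie above the floxed points.

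Levels per kilobase of transcript, which allow members to be compared, put Mt3 first in floxed cortex at 19767 ± 2721 normalised reads per kilobase (SD, n = 6), ahead of Mt1 at 9816 ± 3542, Mt2 at 4204 ± 1746 and Mtf1 at 151.5 ± 7.5. Floxed midbrain had the same order, with 20146 ± 2499 for Mt3, 10860 ± 3349 for Mt1 and 4970 ± 1731 for Mt2 (SD, n = 7). In floxed cerebellum Mt3 at 14269 ± 2800 and Mt1 at 13135 ± 2591 per kilobase were within their spread of each other (SD, n = 7). In cKO cerebellum Mt1 averaged 26997 ± 13863 and Mt3 17065 ± 9789 per kilobase (SD, n = 7).

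Across regions of floxed brain, Mt1 and Mt2 were highest in cerebellum and Mt3 was lowest there. Mt1 and Mt2 rose from cortex over midbrain to cerebellum in each of the 6 floxed animals with 3 regions, and Mt3 was lowest in cerebellum in 6 of 6. Median values of Mt2 were 2016.5 in cortex, 2473.5 in midbrain and 3314.6 in cerebellum. Those of Mt3 were 10460.1, 10692.2 and 6898.3. Floxed cerebellum exceeded floxed cortex by a log2 difference of 0.43 for Mt1 (limma, SE 0.18, adjusted p = 0.0408) and 0.74 for Mt2 (SE 0.22, adjusted p = 0.00499). The call of Mt1 was lost in 7 of 17 other settings: without a sex covariate (0.47, adjusted p = 0.0545), with Xist in its place (0.48, adjusted p = 0.0609) and without floxed animal 1, 2, 3, 4 or 5, each alone (0.37 to 0.41, adjusted p = 0.0630 to 0.109). Against midbrain the differences were 0.31 for Mt1 (SE 0.17, adjusted p = 0.121) and 0.52 for Mt2 (SE 0.21, adjusted p = 0.0316). This call of Mt2 was lost in 5 of 17 settings: without a sex covariate (adjusted p = 0.0579), with Xist (0.0651) and without floxed animal 1 (0.0692), 3 (0.0644) or 4 (0.0699). Cerebellar Mt3 stood at a log2 difference of -0.49 from cortex (SE 0.12, adjusted p = 0.000835) and of -0.51 from midbrain (SE 0.11, adjusted p = 0.000339). Midbrain and cortex did not pass the test for Mt1 (0.12, adjusted p = 0.64), Mt2 (0.22, adjusted p = 0.462) or Mt3 (0.03, adjusted p = 0.888).

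With the animal as a replicate block, which the shared animals allow, Mt1 was also called for cerebellum against midbrain (0.31, SE 0.06, adjusted p = 0.000276) and midbrain against cortex (0.17, SE 0.07, adjusted p = 0.044), and Mt2 for midbrain against cortex (0.27, SE 0.06, adjusted p = 0.00346). The main fit treated regions of 1 animal as separate. Under the block, Mt1 differed between cerebellum and cortex by 0.48 (limma, SE 0.07, adjusted p = 4.72e-06). Mt2 then differed between cerebellum and midbrain by 0.52 (limma, SE 0.06, adjusted p = 8.2e-07). Without the animal labelled floxed 6, cerebellum against cortex gave 0.53 for Mt1 (adjusted p = 0.00653), 0.83 for Mt2 (adjusted p = 0.00101) and -0.45 for Mt3 (adjusted p = 0.00301). Cerebellum against midbrain then gave 0.35, 0.54 and -0.48 (adjusted p = 0.0433, 0.0135 and 0.0013), and midbrain against cortex was called for none of the 3 (adjusted p = 0.415, 0.259 and 0.906). Between floxed regions, 35.2% of tested genes were called for midbrain against cortex, 69.3% for cerebellum against cortex and 69.5% for cerebellum against midbrain, so a call between regions was common. The median of all genes stood at -0.14 for cerebellum against cortex under the authors' scaling and at 0.14 with equal library totals. With equal totals Mt1 and Mt2 differed by 0.71 and 1.02 and Mt3 by -0.21 (adjusted p = 0.105). Mtf1 was lower in cerebellum than in cortex (-0.20, SE 0.05, adjusted p = 0.000453), but with equal totals the sign turned (0.08, adjusted p = 0.116), so no direction between regions is given for it. In cKO animals with 3 regions, Mt1 rose from cortex over midbrain to cerebellum in 2 of 5 and Mt2 in 0 of 5, where Mt2 was higher in cortex than in midbrain in 5 of 5.

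**Figure D5:**
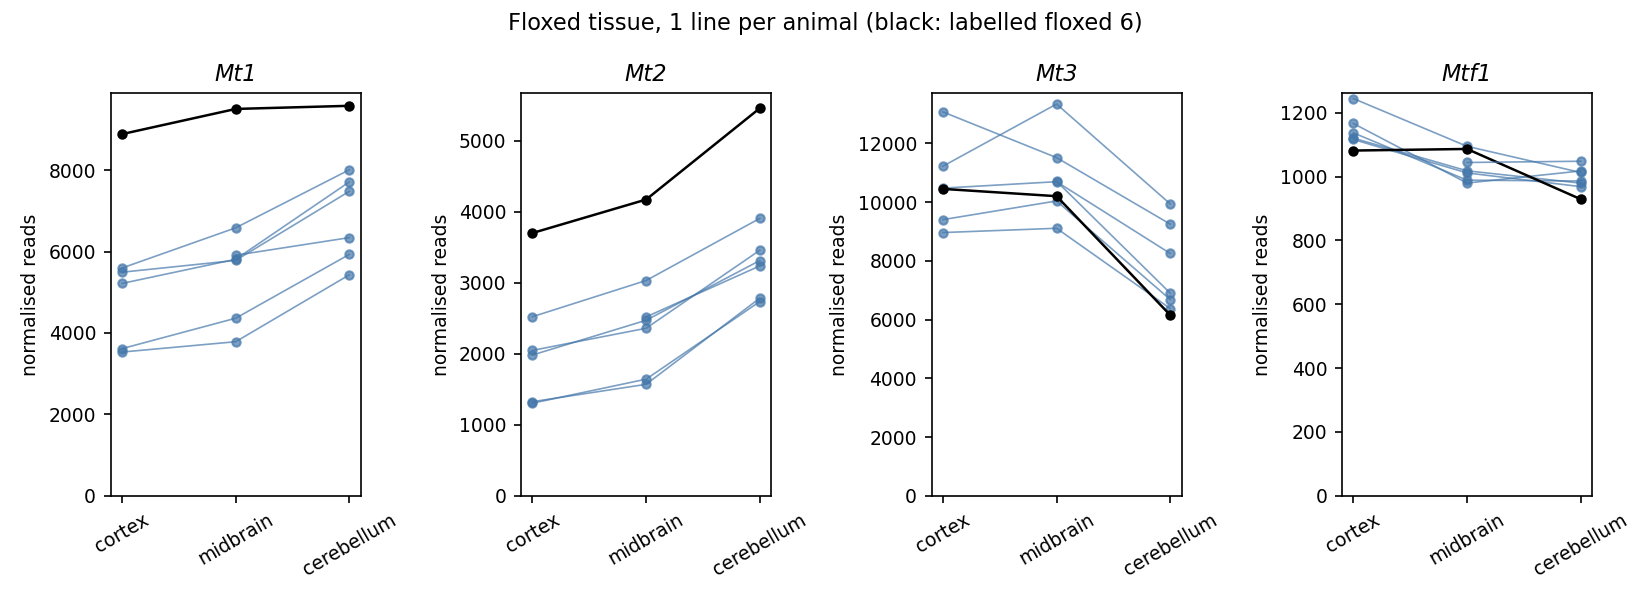
Normalised reads of each member in the regions of floxed animals, 1 line per animal, with the animal labelled floxed 6 in black. The lines of Mt1 and Mt2 rise towards cerebellum in the 6 animals with 3 regions, and those of Mt3 reach their lowest values there.

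Within groups, Mt1 and Mt2 varied together. Pearson's r was 0.98 in floxed cortex (n = 6, exact permutation p = 0.00556), 0.99 in floxed midbrain (n = 7, exact p = 0.000397), 0.93 in floxed cerebellum (n = 7, exact p = 0.000595) and 0.65 in cKO midbrain (n = 7, exact p = 0.122). Spearman's rho in the same order was 0.89, 0.96, 0.96 and 0.61 (exact permutation p = 0.0333, 0.00278, 0.00278 and 0.167). Over the 15 relations computed, the Pearson values of the 3 floxed groups had adjusted exact p values of 0.0185, 0.00446 and 0.00446, and cKO midbrain had 0.203. The adjusted exact p values of rho were 0.1 in floxed cortex, 0.0208 in floxed midbrain and cerebellum, and 0.25 in cKO midbrain. Without the 2 libraries farthest from the median of Mt1, r was 0.95, 0.99, 0.89 and 0.01. In cKO cerebellum the libraries fall into a lower and a higher set of Mt1 with fewer than 6 libraries each, so no pooled value is given for it, and cKO cortex had 5 libraries, too few for a correlation. The 15 relations adjusted over include those of cKO cerebellum.

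Mt1 and Mt3 had r of 0.51, 0.43 and 0.30 in floxed cortex, midbrain and cerebellum (exact permutation p = 0.299, 0.325 and 0.507) and of 0.77 in cKO midbrain (exact p = 0.0349, adjusted 0.0873). Their rho was 0.60, 0.54, 0.21 and 0.71 (exact permutation p = 0.242, 0.236, 0.662 and 0.0881). Without the 2 farthest libraries r was 0.79, 0.79, 0.93 and 0.22, so the value of cKO midbrain rests on those libraries. Mt1 and Mtf1 had r between -0.65 and 0.74 and rho between -0.71 and 0.71, with the lowest adjusted exact p at 0.102 and 0.189.

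Over the 39 libraries with the mean of each region subtracted, the gene most like Mt1 was Mt2 (r = 0.953) among 13734 genes, and Gstk1 (0.922), Cib1 (0.915), Tmem219 (0.907) and Aph1a (0.904) followed. For Mt2 they were Mt1 (0.953), Fuz (0.935), Tmco4 (0.932), Lpin3 (0.927) and Bco2 (0.924). For Mt3 they were Cops9 (0.954), Atp5j2 (0.951), Anapc13 (0.944), Pfdn5 (0.942) and Atp5e (0.941), and for Mtf1 Erbin (0.759), Gm19500 (0.743), Kdm5a (0.736), Dock5 (0.728) and Plcl1 (0.724). With the means of region and genotype subtracted, Mt1 and Mt2 stood at 0.924, Mt3 and Cops9 at 0.954 and Mtf1 and Erbin at 0.641. The points share libraries, depth and the level of short transcripts, and these values are a description.

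The counts for the gene lists are set against the shares of all tested genes called higher (10.5% in cortex, 8.48% in midbrain, 19.4% in cerebellum) and lower (12.9%, 7.61% and 19.6%). Of 6 Mtf1 targets beside the metallothioneins, 0 were called higher and 1 lower in cortex, 0 and 2 in midbrain, and 1 and 2 in cerebellum. Slc30a1, the zinc exporter gene that carries metal response elements, had log2 folds of -0.03 (limma, SE 0.08, adjusted p = 0.829), 0.03 (SE 0.04, adjusted p = 0.72) and -0.15 (SE 0.08, adjusted p = 0.158). Floxed and cKO means of Slc30a1 were 1249 ± 140 (SD, n = 6) and 1215 ± 189 (SD, n = 5) in cortex. Csrp1, a LIM domain protein gene, was lower in each region, with -0.68, -0.46 and -0.82 (adjusted p = 0.0094, 0.00458 and 0.0019). Ndrg1 was lower in midbrain (-0.27, limma adjusted p = 0.0395) and higher in cerebellum (0.63, limma adjusted p = 0.0057). Medians over the list were -0.09 in cortex, 0.01 in midbrain and -0.17 in the cerebellum list, beside -0.007, -0.006 and -0.008 over all genes.

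Zinc exporter genes had 0 of 9 tested members higher and 3 lower in cortex, 0 of 9 and 1 in midbrain, and 1 of 8 and 2 in cerebellum, where the shares of all genes called lower were 12.9%, 7.61% and 19.6%. Without the libraries labelled floxed 6 there were 1, 0 and 1 lower. Slc30a3 was the exporter gene called higher in cerebellum (0.69, limma adjusted p = 0.033). Slc30a9 was among the lower ones in each region (-0.15, -0.11 and -0.19, adjusted p = 0.0331, 0.0455 and 0.0381), but without the libraries labelled floxed 6 it was called in cerebellum (-0.22, adjusted p = 0.0181) and not in cortex or midbrain (adjusted p = 0.0589 and 0.0543). Of 13 zinc importer genes, 3 were higher and 1 lower in cortex, 2 and 1 in midbrain, and 1 and 4 in cerebellum. Slc39a1, a plasma membrane importer gene, rose by 0.44 in cortex and 0.26 in midbrain (adjusted p = 0.00261 and 0.00808). Slc39a11 rose by 0.48 and 0.47 there (adjusted p = 0.00661 and 0.00178), and Slc39a12, an importer gene of astrocytes, fell by 0.46 in cerebellum (adjusted p = 0.00382). Slc39a4 fell by 0.89 in midbrain (limma adjusted p = 0.00883), and Slc39a7 rose by 0.28 in cerebellum (limma adjusted p = 0.0194). Of 16 copper handling genes, 2 were higher and 0 lower in cortex, 1 and 1 in midbrain, and 7 and 1 in cerebellum. In cerebellum Steap3, a metalloreductase gene, and Cp, which encodes the copper protein ceruloplasmin, had log2 folds of 1.38 (SE 0.26, adjusted p = 0.00152) and 1.33 (SE 0.26, adjusted p = 0.00206). Steap2 was the lower one there (-0.65, limma, SE 0.17, adjusted p = 0.00881).

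Other inducers of Mt1 and Mt2 are glucocorticoids, cytokines of the gp130 family, which act through Stat3, and oxidants. Of 16 glucocorticoid response genes, 1 was higher and 2 lower in cortex, 2 and 2 in midbrain, and 6 and 2 in cerebellum, with list medians of -0.02, 0.04 and 0.13. Cdkn1a, the gene of a cell cycle inhibitor, rose in each region (0.76, 0.59 and 1.23, adjusted p = 0.00466, 0.00948 and 0.00668), and Hif3a had log2 folds of -1.56, -1.12 and -1.55 (adjusted p = 0.00675, 0.00379 and 0.00399). Fkbp5, a glucocorticoid-induced chaperone gene, rose by 0.25 in midbrain (adjusted p = 0.0321). Of 13 genes of the gp130 and Stat3 response, 8 were higher in cortex, 3 in midbrain and 9 in cerebellum, with 0 lower and medians of 0.77, 0.26 and 1.33. Timp1, a metalloproteinase inhibitor gene, rose by 2.51, 1.99 and 2.54 (adjusted p = 0.00197, 0.0037 and 0.00259). Osmr, the oncostatin M receptor gene, rose by 1.56 in cortex and 0.87 in midbrain (adjusted p = 0.0013 and 0.00604), and Cebpd, a transcription factor gene of the acute phase, by 1.67 and 0.69 (adjusted p = 0.000747 and 0.00543). Serpina3n, a protease inhibitor gene, had a log2 fold of 5.26 in cerebellum (SE 0.72, adjusted p = 0.000522). The lists overlap: Osmr, Lcn2, Steap4, Timp1, Serpina3n and Cp are also in the reactive astrocyte list below. Steap4 and Cp are in the copper handling list as well, so the counts of these lists are not separate observations.

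The Nrf2 antioxidant list had 6 of 16 genes higher and 1 lower in cortex, 4 and 3 in midbrain, and 7 and 2 in cerebellum, with medians of 0.04, 0.05 and 0.17. Nfe2l2, which encodes Nrf2, rose by 0.68, 0.39 and 0.65 (adjusted p = 0.00299, 0.0026 and 0.00144), whereas Gstm1, a glutathione transferase gene, had log2 folds of -1.17, -0.86 and -1.04 (adjusted p = 0.00402, 0.000117 and 0.004). Of 11 hypoxia response genes, 0 were higher and 1 lower in cortex, 1 and 3 in midbrain, and 2 and 2 in cerebellum, and Vegfa, a vascular growth factor gene, had log2 folds of -0.74, -0.57 and -0.59 (adjusted p = 0.00136, 0.000802 and 0.00955). Ldha rose by 0.28 in midbrain (limma adjusted p = 0.0128). Ndrg1, also in the list of Mtf1 targets, rose by 0.63 in cerebellum (limma adjusted p = 0.0057).

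Cell type markers moved with the groups. Of 15 reactive astrocyte genes, 13 were higher in cortex, 6 in midbrain and 11 in cerebellum, with 0 lower. Of 15 general astrocyte markers, 1 was higher and 6 lower in cortex, 1 and 8 in midbrain, and 1 and 8 in cerebellum, beside 12.9%, 7.61% and 19.6% of all genes called lower. Of 12 microglia markers, 10, 8 and 12 were higher and 1, 1 and 0 lower. Their summed level ran from 10814.7 to 16135.6 in floxed and from 13386.3 to 29969.9 in cKO cortex, from 9249.1 to 13079.4 and from 10867.8 to 21120.5 in midbrain, and from 3446.7 to 14571.0 and from 12006.7 to 32151.2 in cerebellum. Of 8 meningeal fibroblast markers, 4, 1 and 8 were higher, and their sum in cerebellum was 5581.6 to 10342.6 in floxed and 9437.5 to 54951.4 in cKO libraries, with Dcn at a log2 fold of 2.12 (adjusted p = 0.000598). The cKO cerebellum libraries with the highest Mt1 and Mt2, libraries 1, 4 and 7, had the highest meningeal sums, 22638.3, 54951.4 and 28027.6. Libraries 1 and 4 also had the highest sums of 12 ependymal and choroid plexus markers, 153175.9 and 291434.4, against at most 71596.2 in floxed cerebellum, while library 7 was within the floxed range at 24839.8. The part of these cells in the metallothionein values was not tested.

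In the other marker lists few members were higher. Neuron markers had 1, 1 and 0 of 10 higher and 3, 1 and 5 lower, and oligodendrocyte markers 0 of 10 higher and 5, 5 and 2 lower. Endothelial markers had 0 higher in any region and 7 of 10 lower in midbrain, and mural cell markers had 2, 4 and 0 of 9 lower. Ependymal and choroid plexus markers were 1 of 11 higher and 5 lower in cortex, 10 of 12 lower in midbrain and 1 of 12 higher in cerebellum. Of 7 blood cell markers, 0 were higher and 1 of 4 tested was lower in cortex, 2 of 4 in midbrain and 0 of 6 in cerebellum. No marker of the cell type lists was at or under 3 normalised reads in every library of a group, except Hbb-bs in cKO cortex and cKO midbrain. Without the libraries labelled floxed 6, gp130 and Stat3 response genes were 7, 5 and 9 higher, reactive astrocyte genes 12, 8 and 11, microglia markers 8, 8 and 12 and meningeal markers 4, 2 and 7. Copper handling genes were then 2, 2 and 5 higher, glucocorticoid response genes 2 higher in cortex and 4 lower in cerebellum, zinc importers 0 lower in cortex and 2 in midbrain, and ependymal and choroid plexus markers 3 lower in cortex. Astrocyte markers were then 7, 8 and 9 lower and 2 higher in cerebellum, and the other list counts moved by at most 1. These counts without the libraries were added after the data were seen, and the shares of all genes called were then 10.4%, 9.71% and 20.5% higher and 11.4%, 8.9% and 20.9% lower. Every list was chosen with earlier results of these data in view.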

How the data were processed

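Polyadenylated RNA was extracted with TRIzol from cortex, midbrain and cerebellum and, per the labels' protocols, sequenced as paired 50-base reads with NEBNext Ultra, a kit without strand marks. STAR, Salmon, DESeq2 and the build mm10 are named in the submitters' processing notes, without versions and in no stated order. The table the authors deposited is called raw counts but holds a normalised signal: totals were 21.5 M to 28.8 M. Taking the spacing of low values in each library as 1 read, 87.0% of the 75462 values of at most 4.5 such units were whole to 0.1, too few to recover exact reads, so no count test was run. Estimated depths and reads rest on this spacing and are approximate. In cKO cerebellum library 7 the unit rested on 9 equal values, and 1234 of 1763 low values were whole. How the values were normalised is not stated in those sources. Of 24972 entries, 26 with date-like names (at most 0.351% of a library) were dropped.

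limma 3.58.1 in R 4.3.3 (trend, robust) was fitted to log2(value + 1) of all genes with a value of at least 10 in as many libraries as the smaller group, with labelled sex as covariate, and Benjamini-Hochberg adjusted p under 0.05 over all genes tested was the call. Each region was fitted alone for genotype, all 6 groups together for differences of the effect, and the 20 floxed libraries for regions. This scale understates the change of low genes. Single members and ratios were tested with two-sided exact permutation tests. The limma and permutation steps were tested on simulated data. Libraries were grouped by genotype and tissue label, and the replicate numbers by title. Each library of a group is from a separate animal. The highest correlation of any 2 libraries was 0.9948 (log2), so none was a copy. Same-numbered floxed and cKO libraries did not deviate together (19 pairs, correlations -0.335 to 0.251, median -0.06), so the numbers do not pair the genotypes, whereas regions of 1 animal share that animal (median correlations 0.277 in cKO and 0.278 in floxed). The named genes were all 4 members, Yy1, Gfap, Mt4 and Slc30a1, the 5 genes most like each member (mean of 50 or more), and up to 3 called genes with the lowest p per list and region. The members and lists were chosen with earlier results of these data known. Coordinates and coding sequences are from GENCODE vM21 on GRCm38, which mm10 names, and promoters from RefSeq. Alternatives changed the pseudocount, filter, scaling, covariates, weights, block and libraries, 1 at a time. Other software was matplotlib 3.10.9, scipy 1.17.1, numpy 2.4.6, pandas 2.3.3 and Python 3.11.15.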

Additional observations from a re-analysis of the deposited data

Results flagged for a closer look

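Mt2 in the cerebellum library labelled floxed 6 was 5461.3 normalised reads, against 2737.1 to 3909.2 in the other 6 floxed cerebellum libraries. The gap to the next value was 0.57 of the range of the group, just past the limit of 0.568 for 7 libraries. Of 24 groups of 5 to 7 libraries looked at in this way, this was the one that passed the limit. Chance alone passes it in about 1 group in 20, so 1 among 24 is near what chance gives. The same library had Yy1 and Gfap in the cKO range, and its cortex and midbrain partners were also the highest floxed libraries for Mt1 and Mt2.

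The genotype effect on Mtf1 differed between cerebellum and cortex by 0.19 on the log2 scale (limma adjusted p = 0.0487), with an effect of 0.06 in cerebellum and of -0.13 in cortex, neither of which was called on its own. This call held in 8 of 24 other settings and was lost in 11 of 14 that leave out 1 animal. Of all tested genes, 14.5% were called for this difference.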

How the results depend on the processing

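Of 348 values of the genotype effect on the members under other settings, 332 kept the direction and the side of the threshold. Settings that ended calls of Mt1 were Xist in place of labelled sex in cortex (0.76), depth as a covariate in midbrain (0.58) and cerebellum (0.81), 1 fit of all 6 groups in midbrain (0.68) and leaving out cKO cerebellum libraries 4 and 7 (0.56). Mt2 changed under none, within 1.28 to 1.60 in cortex, 0.84 to 1.13 in midbrain and 0.82 to 1.21 in cerebellum. The sign of Mt3 turned with the short-transcript level as a covariate (-0.07 in cortex, -0.08 in midbrain, -0.36 in cerebellum) and, in cerebellum, with depth as a covariate (-0.24), array weights (-0.20), without the 3 animals whose sex label differs from their transcripts (-0.04), and without cKO libraries 4 and 7 (-0.32). Leaving out 1 library moved it there between -0.09 and 0.24. The unadjusted exact permutation test passed for Mtf1 at -0.13 in cortex and -0.10 in midbrain. The cause of these changes was not tested.

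Genes called for genotype in cortex numbered 3693, but 2040 without a sex covariate, 1557 with Xist in place of labelled sex, 1734 with the short-transcript level, 2302 with 1 fit of all 6 groups and 1164 with the replicate block. In midbrain they numbered 2524, but 721 with depth as a covariate and 961 with 1 fit. Differences of the effect numbered 1 for midbrain against cortex (2 with a pseudocount of 10, 2 with the short-transcript level, 3 with the replicate block, 6 without the 3 animals, and 1 to 6 leaving out 1 animal). For cerebellum against cortex they numbered 2414 (4351 with the short-transcript level, 1513 to 3156 leaving out 1 animal). The replicate number as a block changed no other call of a member's genotype effect, and its folds for Mt1, Mt2, Mt3 and Mtf1 were 0.97, 1.41, 0.26 and -0.11 in cortex.

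Uncalled differences of the genotype effect turned sign for Mt1 between cerebellum and cortex (0.01 with equal totals, 0.01 with the short-transcript level, -0.17 to 0.14 leaving out 1 animal), for Mt3 between midbrain and cortex (0.08 with the short-transcript level), cerebellum and cortex (-0.33 to 0.01 leaving out 1 animal) and cerebellum and midbrain (-0.18 with the short-transcript level, -0.18 without the 3 animals, -0.17 to 0.13 leaving out 1), and for Mt2 between cerebellum and midbrain (-0.01 without the 3 animals, 0.00 to 0.23 leaving out 1). Between floxed regions, Mt3 turned for midbrain against cortex (-0.06 with the short-transcript level, -0.02 to 0.09 leaving out 1 animal) and Mtf1 for cerebellum against cortex (0.08 with equal totals) and midbrain (0.12 with equal totals, 0.05 with median ratios). The ratio of Mt1 to Mt2 in cerebellum was -0.24 to -0.16 (log2) leaving out 1 library. Members were read by 315 estimated reads or more. The median estimated depth was lower in cKO than in floxed libraries in each region, so depth and genotype were not fully separate. With depth as a covariate, Mt1 lost its call in midbrain and cerebellum, whereas Mt2 kept its call in each region. The part of depth in the genotype effects was not tested beyond this covariate.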

Other observations

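A floxed and a cKO library, both numbered 7, carry the title code of the cortex libraries but a midbrain tissue label and entered no comparison. Mt1 was 4893.5 in the floxed and 8909.1 in the cKO library, Mt2 was 2000.1 and 4621.6, Mt3 was 11185.9 and 11190.2, and Mtf1 was 1148.6 and 1050.7 normalised reads. Gfap was 2735.1 in the floxed library of this pair, against 9067.6 to 11059.5 in the floxed midbrain and 2631.3 to 6347.8 in the floxed cortex group.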
